A study of Mus musculus with 8 samples.

Results

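Metallothioneins and the proteins that move zinc across membranes were followed in gastrocnemius (GAS) muscle after knockdown of MYTHO. The group holds 10 genes, all of which were found among the 22664 gene symbols and 22206 probe sets of the table: the metallothioneins *Mt1*, *Mt2*, *Mt3* and *Mt4*, the metal-sensing transcription factor *Mtf1*, the zinc exporters *Slc30a1* and *Slc30a2*, and the zinc importers *Slc39a1*, *Slc39a10* and *Slc39a14*. Members were found by gene symbol. A gene with several probe sets would have been represented by the one selected on the highest mean of the group averages, but each member had 1 probe set, so no measured value entered the choice of a probe set. The genes were proposed with earlier results of these arrays known, so their p-values are not independent support for a change. All 10 were tested, without a filter on low signals.

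Male C57/Bl6j mice received intramuscular AAV at 10 weeks of age and GAS muscles were taken 12 weeks later, at 22 weeks. One leg was given AAV sh-RNA MYTHO (4 arrays, MYTHO-KD), in which a U6 promoter drives a short hairpin RNA against the *Mytho* transcript, and the opposite leg AAV sh-RNA scrmb (4 arrays, scramble), which carries a scrambled hairpin behind the same promoter. Both groups therefore share the injection, the virus and the expression of a hairpin, and the U6 promoter is not restricted to muscle fibres. Total RNA of the whole muscle piece was hybridized to Clariom S Mouse arrays, in which a group of short probes, the probe set, reports each gene.

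Metallothioneins are small cysteine-rich proteins that bind zinc and copper and buffer them inside the cell. In many tissues *Mt1* and *Mt2* are transcribed at a low rate until free zinc, cadmium, glucocorticoids, interleukin-6 or oxidative stress raises them, whereas *Mt3* is best known from brain and *Mt4* from squamous epithelium. MTF1 is the factor that senses zinc and binds metal response elements in the promoters of *Mt1*, *Mt2* and the exporter gene *Slc30a1*. Proteins of the Slc30 family (ZnT) move zinc out of the cytosol and those of the Slc39 family (ZIP) move it in, and skeletal muscle holds a large share of the zinc of the body.

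The metal response element was looked for in the promoters, because binding of MTF1 to this element is the textbook link between zinc and these genes. RefSeq promoter windows (build GRCm38.p6, 250 bases before to 50 after the annotated start) were matched by symbol for 9 of the 10 members; *Slc39a14* was not matched. The letters searched were TGCACNC and TGCGCNC on both strands, with no other motif searched. The windows of *Mt1* and *Mt2*, which rose, and of *Slc30a1*, which did not pass the test, are printed 5′ to 3′ on the plus strand up to base 30 after the start, with the matches in capitals. They lie at chr8:94178839-94179118, chr8:94172368-94172647 and chr1:191906531-191906810.
Mt1: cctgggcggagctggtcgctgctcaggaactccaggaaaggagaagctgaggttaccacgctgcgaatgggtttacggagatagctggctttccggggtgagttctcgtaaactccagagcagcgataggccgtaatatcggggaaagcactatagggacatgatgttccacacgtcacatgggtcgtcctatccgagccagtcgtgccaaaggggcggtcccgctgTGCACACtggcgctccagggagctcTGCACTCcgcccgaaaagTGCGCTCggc
Mt2: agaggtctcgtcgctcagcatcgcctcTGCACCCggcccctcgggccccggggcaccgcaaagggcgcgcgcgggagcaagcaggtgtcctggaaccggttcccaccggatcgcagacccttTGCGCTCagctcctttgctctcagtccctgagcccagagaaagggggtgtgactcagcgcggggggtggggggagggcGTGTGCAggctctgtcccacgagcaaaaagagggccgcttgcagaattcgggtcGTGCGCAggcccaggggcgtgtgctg
Slc30a1: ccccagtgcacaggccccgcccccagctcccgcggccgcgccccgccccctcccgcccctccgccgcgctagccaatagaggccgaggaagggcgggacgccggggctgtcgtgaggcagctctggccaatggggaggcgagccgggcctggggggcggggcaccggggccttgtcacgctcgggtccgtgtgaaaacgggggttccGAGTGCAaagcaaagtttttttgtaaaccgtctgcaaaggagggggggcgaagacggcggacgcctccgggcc

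The *Mt1* window held 3 matches, beginning 23 bases before the start and at bases 3 and 21 after it. The *Mt2* window held 4, beginning 223, 128 and 50 bases before the start and at base 5 after it. In *Slc30a1* there were 2, of which 1 begins 43 bases before the start and 1 at base 31 after it, beyond the printed part. *Slc30a2* also had 2 matches, *Mt3* and *Mt4* had 1 each, and none was found in the windows of *Mtf1*, *Slc39a1* and *Slc39a10*. Of 32851 promoter windows of the same length, 25.7% held at least 1 match, 7.11% at least 2, 1.97% at least 3 and 0.517% at least 4. A match is a description of letters in the window and not a site shown to be bound. Positions are counted from the annotated start, and whether transcription begins there in muscle was not tested. Elements outside the windows were not searched, so these are not counts for whole promoters.

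The deposited table gave 1 average and 1 standard deviation (SD) per group on the log2 scale, and values of single arrays were not used here. Averages ran from 3.18 to 19.93 and the median SD was 0.27 in either group. The target of the hairpin, listed as *D230025D16Rik* on chromosome 8, averaged 7.71 ± 0.66 in MYTHO-KD and 10.02 ± 0.37 in scramble (authors' average ± SD, 4 arrays each), a log2 fold change of -2.31 (adjusted p = 0.0138, limma). A probe set was called when it differed at least 2-fold and its unadjusted p in the moderated test of limma was under 0.05, which is the threshold of the study's methods. On this rule 0.860% of all probe sets (191) were called higher in MYTHO-KD and 0.257% (57) lower. The study's own test gave smaller counts of genes in either direction at this threshold, so the 2 tests are not the same. An unadjusted p under 0.05, whatever the fold, was reached by 6.48% of probe sets as higher and 5.52% as lower, and an adjusted p under 0.05 (Benjamini-Hochberg, all 22206 probe sets) by 0.275%. The 15 markers of skeletal muscle fibres, such as *Acta1*, *Ckm* and *Myh4*, all lay between 17.33 and 19.93 and were flagged as expressed in both groups, as the label of the tissue states.

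Of the 10 genes, 2 were called higher in MYTHO-KD and 0 lower, and both that rose were metallothioneins. *Mt2* rose 12.9-fold and *Mt1* 4.86-fold. The other 8 members lay between -0.19 and 0.16 on the log2 scale, with a median of 0.06 against -0.01 over all probe sets, and 0 of these 8 had an unadjusted p under 0.05 in limma's test. Because the genes were named with results in view, the count of called members beside the background of 0.860% is a description only.

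*Mt2*, which codes for metallothionein-2, lies on the plus strand of chromosome 8 from 94172618 to 94173567 (mm10, as in the table). Its signal averaged 11.07 ± 0.88 in scramble and 14.76 ± 1.80 in MYTHO-KD (authors' average ± SD, 4 arrays each, log2). The log2 fold change was 3.69 (standard error 0.727, 95% interval 2.10 to 5.28, adjusted p = 0.0670, limma), or 12.9-fold with an interval from 4.30 to 38.7. Among all 22206 probe sets this difference ranked 2 from the top, below that of *Ddah1* (3.79) and above that of *Igf2* (3.43). It passed the 2-fold rule but did not pass the adjustment over all probe sets.

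*Mt1*, which codes for metallothionein-1, lies 5.52 kb downstream of *Mt2* on the same strand, from 94179089 to 94180327. Its signal averaged 12.81 ± 0.43 in scramble and 15.09 ± 1.16 in MYTHO-KD (authors' average ± SD, 4 arrays each, log2). The log2 fold change was 2.28 (standard error 0.462, 95% interval 1.27 to 3.29, adjusted p = 0.0742, limma), a 4.86-fold rise with an interval from 2.41 to 9.77. The difference ranked 19 from the top of all probe sets. The intervals of *Mt1* and *Mt2* overlapped, and whether their log2 changes differ was not tested.

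Both genes had larger SDs in MYTHO-KD than in scramble, a difference in spread that was not tested. The SD of *Mt2* in MYTHO-KD ranked 26 among the SDs of all probe sets in that group and that of *Mt1* ranked 76, whereas in scramble muscles they ranked 78 and 3685. If the deposited averages are plain means, no single array of 4 can lie further than 1.5 SD from its group's average. Under that condition the MYTHO-KD arrays lay between 13.35 and 16.83 for *Mt1* and the scramble arrays between 12.17 and 13.46. For *Mt2* the corresponding limits were 12.06 to 17.46 and 9.75 to 12.39. The limits of the groups overlap narrowly for either gene, so that an overlap of single arrays is possible but not shown, and which muscles carried the highest signals was not tested.

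**Figure D1:**
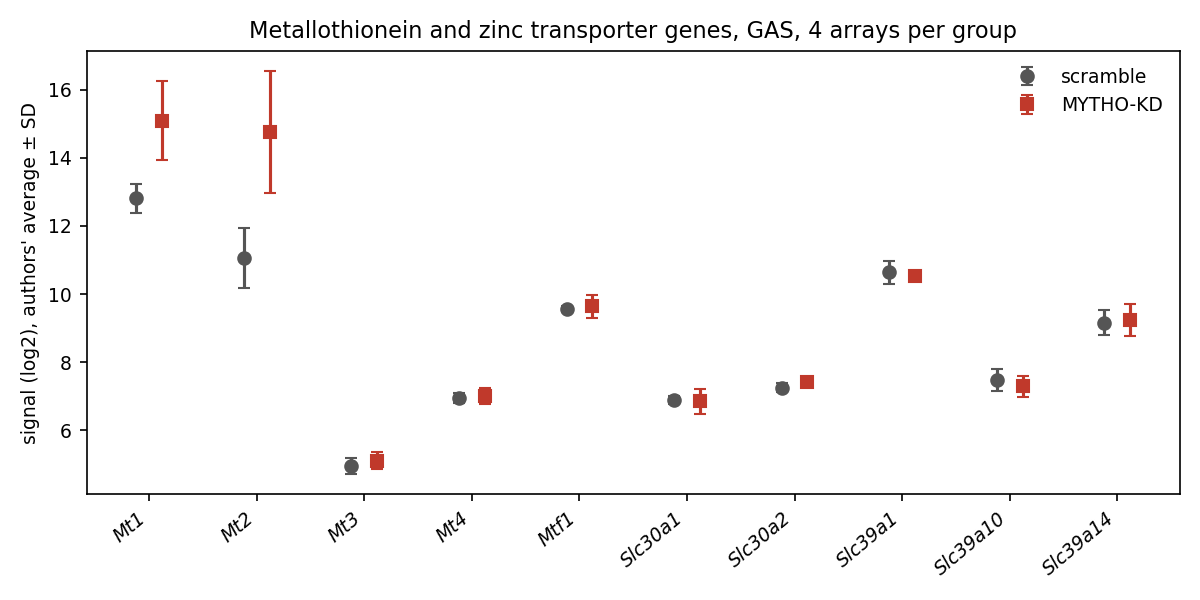
Signals of the 10 genes on the log2 scale in GAS muscle; circles give the authors' average in scramble and squares that in MYTHO-KD, with bars of ± SD over 4 arrays per group. *Mt1* and *Mt2* stand at 15.09 and 14.76 in MYTHO-KD against 12.81 and 11.07 in scramble, while the symbols of the other 8 genes nearly coincide.

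The other metallothionein genes of the cluster were not called. *Mt3* averaged 4.94 ± 0.24 in scramble and 5.10 ± 0.24 in MYTHO-KD, near the low end of the array's scale, with a log2 fold change of 0.16 (95% interval -0.25 to 0.57, adjusted p = 0.806, limma). *Mt4* averaged 6.95 ± 0.15 and 7.00 ± 0.23, with a log2 fold change of 0.05 (95% interval -0.32 to 0.42, adjusted p = 0.953, limma). Both probe sets were flagged as expressed. The signal of *Mt3* was low, though above the lowest group average in the table (3.18), and a small change can be hidden there. In the moderated test the upper ends of these intervals, 0.57 and 0.42, lay below the lower ends for *Mt1* (1.27) and *Mt2* (2.10). With unequal variances the standard error of *Mt1* was 0.619 in place of 0.462, and the intervals were not compared in that setting.

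All 4 metallothionein genes lie within 43.1 kb on chromosome 8, which also carries the gene of the hairpin's target 11.0 Mb further along. Within 500 kb of the cluster there were 14 other probe sets, of which 4 were higher and 10 lower, with a median log2 fold change of -0.13. None of these 14 was called in limma's test, which lies near the shares of all probe sets called (0.860% higher, 0.257% lower). An unadjusted p under 0.05 was reached by 3 of the 14, and by 6.48% of all probe sets as higher and 5.52% as lower. The largest differences were those of *Arl2bp* at 0.89 (adjusted p = 0.0767), *Gnao1* at 0.59 (adjusted p = 0.212) and *Ogfod1* at -0.42 (adjusted p = 0.434, limma). *Nup93*, the nearest gene on the side of *Mt1*, had a log2 fold change of -0.31, and *Bbs2*, the nearest on the side of *Mt4*, one of -0.40. These last 2 were named for their position after their values were seen.

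**Figure D2:**
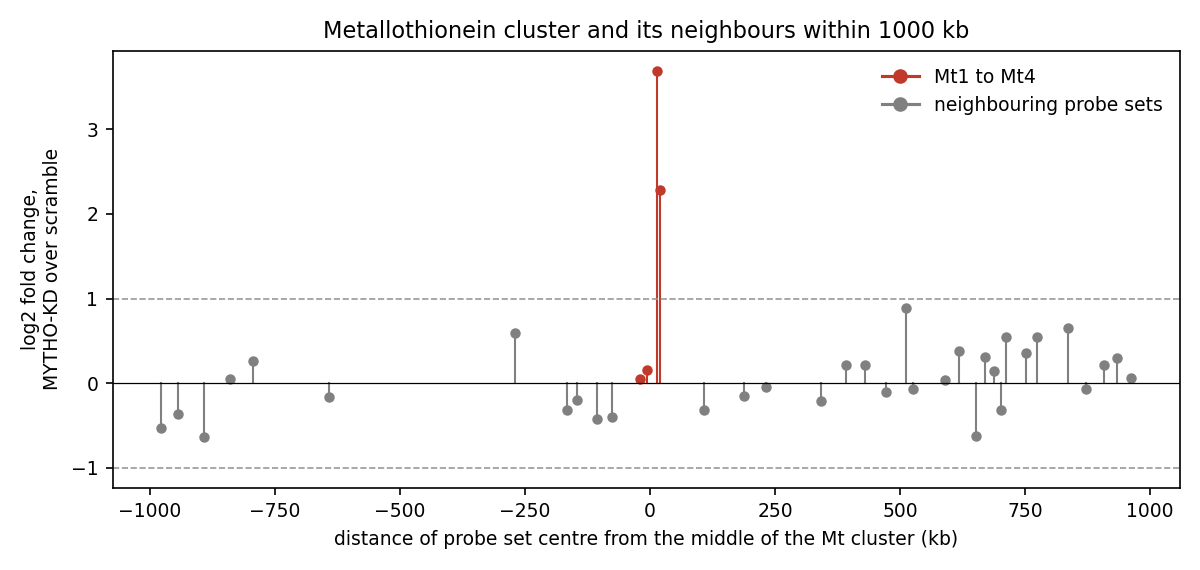
Log2 fold change of MYTHO-KD over scramble for each probe set within 1000 kb of the metallothionein cluster, plotted by the distance of its centre from the middle of the cluster in kb, with dashed lines at a 2-fold change in either direction. *Mt2* (3.69) and *Mt1* (2.28) are the only points beyond the dashed lines in this window.

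The factor and the transporters that are tied to zinc sensing were not called. *Mtf1*, the zinc-sensing transcription factor itself, averaged 9.57 ± 0.09 in scramble and 9.64 ± 0.34 in MYTHO-KD, with a log2 fold change of 0.07 (95% interval -0.34 to 0.48, adjusted p = 0.935, limma). *Slc30a1*, which codes for the exporter of the plasma membrane ZnT1 and is, like *Mt1* and *Mt2*, a classical target of MTF1, averaged 6.89 ± 0.12 and 6.85 ± 0.37. Its log2 fold change was -0.04 (95% interval -0.47 to 0.39, adjusted p = 0.969, limma). *Slc39a10*, an importer that zinc represses through MTF1, averaged 7.48 ± 0.32 in scramble and 7.29 ± 0.31 in MYTHO-KD, a log2 fold change of -0.19 (95% interval -0.65 to 0.27, adjusted p = 0.795, limma).

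*Slc30a2*, an exporter that loads vesicles with zinc, averaged 7.25 ± 0.13 in scramble and 7.40 ± 0.14 in MYTHO-KD, with a log2 fold change of 0.15 (95% interval -0.19 to 0.49). *Slc39a1*, a widely expressed importer of the plasma membrane, averaged 10.64 ± 0.34 and 10.53 ± 0.11, with a log2 fold change of -0.11 (95% interval -0.52 to 0.30). *Slc39a14*, the importer of zinc, iron and manganese that is induced in liver during inflammation, averaged 9.16 ± 0.37 and 9.23 ± 0.47, with a log2 fold change of 0.07 (95% interval -0.49 to 0.63). The differences of *Slc39a1* and *Slc39a14* were smaller than the SD of scramble, that of *Slc30a2* was slightly above both SDs, and the adjusted p-values of *Slc30a2*, *Slc39a1* and *Slc39a14* were 0.777, 0.883 and 0.956 (limma).

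The remaining members of both transporter families were examined as a list of 19 genes, 8 of the ZnT and 11 of the ZIP family. All were flagged as expressed in both groups, 6 were higher and 13 lower, and the median log2 fold change was -0.04. Among all 22206 probe sets 10416 were higher and 11412 lower. Limma's test called 0 of the 19. Over all probe sets 0.860% were called higher and 0.257% lower, so most lists of this length would hold 0. Of the 19, 3 had an unadjusted p under 0.05, each of them lower in MYTHO-KD, beside 5.52% of all probe sets. Among the exporters *Slc30a9*, which is linked to zinc release from mitochondria, averaged 11.35 ± 0.12 in scramble and 10.63 ± 0.37 in MYTHO-KD, a log2 fold change of -0.72 (95% interval -1.15 to -0.29, adjusted p = 0.163, limma). *Slc30a4* averaged 10.74 ± 0.15 and 10.23 ± 0.33, with a log2 fold change of -0.51 (95% interval -0.93 to -0.09, adjusted p = 0.320, limma). *Slc30a7*, an exporter into the Golgi, stood at 0.25 on the same scale (adjusted p = 0.675, limma).

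Among the importers the largest differences were those of *Slc39a7*, which releases zinc from the endoplasmic reticulum and Golgi (log2 fold change 0.49, adjusted p = 0.420), *Slc39a4*, known for uptake in the intestine (-0.41, adjusted p = 0.405), and *Slc39a2* (0.36, adjusted p = 0.557, limma). *Slc39a4* and *Slc39a2* had averages of at most 6.04 in either group, low on the array's scale. Over all 24 ZnT and ZIP genes, members included, log2 fold changes ran from -0.72 to 0.49, and 0 passed the 2-fold rule. With 0.860% of all probe sets called higher and 0.257% lower, 0 of 24 lies near the shares of the whole array.

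**Figure D3:**
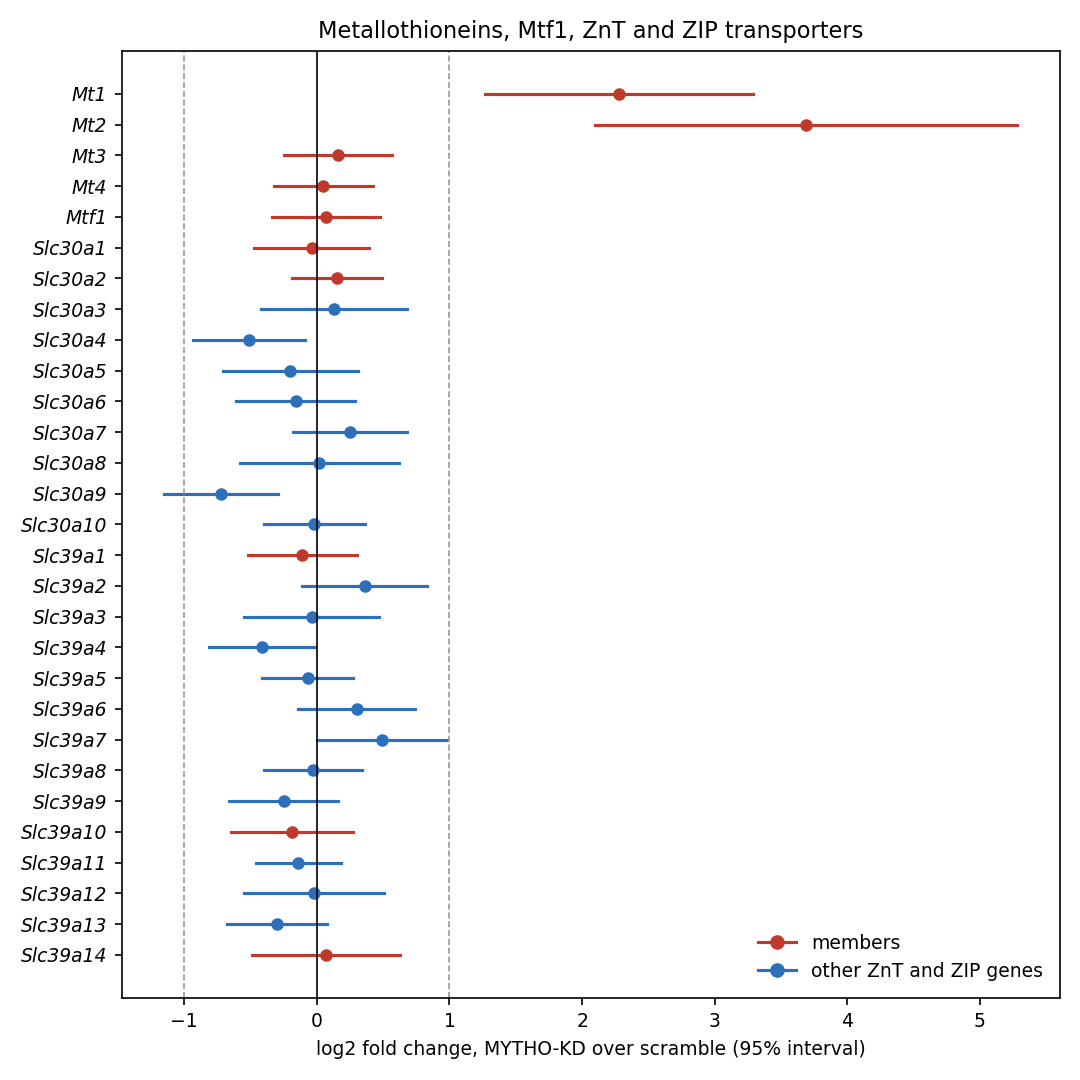
Log2 fold change of MYTHO-KD over scramble with its 95% interval from limma's moderated test for the metallothioneins, *Mtf1* and the ZnT (Slc30) and ZIP (Slc39) genes; red marks the 10 members, blue the 19 other transporters, and dashed lines a 2-fold change. In this test the intervals of *Mt1* and *Mt2* lie wholly to the right of the dashed line at 1, and those of all 27 other genes lie to its left. Without moderation the standard errors of *Mt1* and *Mt2* are larger (0.619 and 1.002), and the wider intervals are not drawn.

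Other genes of metal handling and of the signals known to raise metallothioneins were read from lists of genes chosen with earlier results known. For all these lists the background is the whole array, with 0.860% of probe sets called higher and 0.257% lower. An unadjusted p under 0.05 was reached there by 6.48% as higher and 5.52% as lower (limma). Of 5 genes linked to MTF1 in other work beyond the members (*Ndrg1*, *Csrp1*, *Selenow*, *Gclc* and *Pgf*), 0 were called and 0 had an unadjusted p under 0.05 in limma's test, with log2 fold changes from -0.28 for *Pgf* to 0.25 for *Gclc* and a value of 0.18 for *Ndrg1*. Of 15 copper-handling genes 0 were called and 1 had an unadjusted p under 0.05, and their median was 0.09. The largest differences among them were those of *Cox17*, a copper chaperone of cytochrome oxidase (0.47), the copper pump *Atp7a* (-0.41) and, with equal values, the chaperone *Atox1* and *Sco1* (0.20 each). Of 14 iron-handling genes 0 were called and 2 had an unadjusted p under 0.05, the transferrin receptor *Tfrc* (0.65, adjusted p = 0.295) and the ferritin light chain *Ftl1* (0.59, adjusted p = 0.356, limma), while transferrin *Trf* stood at -0.33.

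Of 13 glucocorticoid-responsive genes limma's test called 0, 1 had an unadjusted p under 0.05, and the median log2 fold change was 0.05. *Cebpd* stood at 0.77 (adjusted p = 0.213), while *Fkbp5*, a commonly used readout of the glucocorticoid receptor, stood at -0.42 (adjusted p = 0.478) and *Fam107a* and *Klf15* both at -0.39 (adjusted p = 0.608 and adjusted p = 0.666, limma). Of 15 genes of the interleukin-6 and STAT3 response 1 was called higher, *Timp1*, an inhibitor of matrix proteases (1.04, adjusted p = 0.256, limma), from an average of 4.46 in scramble. *Timp1* was not flagged as expressed in scramble, so its level there is uncertain, and both the filter on dim probe sets and that on expression leave it out. Of the same list 4 genes had an unadjusted p under 0.05, *Timp1* and *Stat3* (0.68, adjusted p = 0.233) as higher and *Il6* and *Pim1* (-0.70, adjusted p = 0.396, limma) as lower. *Il6* itself stood at -0.73 (adjusted p = 0.260) and *Lcn2* at 0.72 (adjusted p = 0.450, limma), and the median was 0.15. The signal of *Il6* was also low, with averages of 5.91 in scramble and 5.18 in MYTHO-KD. The filter on dim probe sets leaves *Il6* out as well, so its difference is uncertain.

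Of 14 targets or regulators of NRF2, the factor of the oxidative stress response, 1 was called higher. This was *Srxn1*, sulfiredoxin, which rose from 6.86 ± 0.21 to 7.96 ± 0.23, a log2 fold change of 1.10 (adjusted p = 0.0345, limma). *Txnrd1* stood at 0.47 (adjusted p = 0.370) and *Me1* at -0.82 (adjusted p = 0.344, limma), and the median of the list was 0.20. The 10 genes of heat shock proteins lay on 9 probe sets, of which 8 were higher, 5 had an unadjusted p under 0.05 and 1 was called, with a median of 0.66. The small heat shock protein gene *Hspb1* rose by 1.24 on the log2 scale (adjusted p = 0.0757, limma), while *Dnajb1* stood at 0.88 and *Cryab* at 0.87. Across the metal, hormone, cytokine and stress lists, 3 genes were thus called higher (*Srxn1*, *Hspb1* and *Timp1*, the last not flagged as expressed in scramble) and 0 lower. Over all probe sets the shares called were 0.860% higher and 0.257% lower. Some genes are on more than 1 of these lists, so the list sizes do not add up to distinct genes. The count of 3 therefore has no share of its own to set beside these, and it is a description only.

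Whole muscle RNA holds cells other than fibres, and in such samples more cells of a type and more RNA per cell cannot be told apart. Markers of macrophages had the same direction between the groups as *Mt1* and *Mt2*: all 15 were higher in MYTHO-KD, by 0.01 to 2.53. Of these, 4 were called (*Cd68* 2.53, *Lyz2* 1.94, *C1qb* 1.27, *Ctss* 1.10) and the median was 0.49. Among all 22206 probe sets 10416 were higher and 0.860% were called higher. Group averages cannot tell whether markers and metallothioneins were high in the same muscles. The linear signals of these 15 summed to 2529 in scramble and 5615 in MYTHO-KD, a ratio of 2.22. All 12 fibroblast markers were higher as well, 3 were called (*Lum*, 1.49; *Col3a1*, 1.43; *Fn1*, 1.35), the median was 0.72 and the summed signal stood at 1.30 times that of scramble. The 11 endothelial markers were all higher with 0 called in limma's test, 2 at an unadjusted p under 0.05, a median of 0.34 and a summed ratio of 1.35, and *Kdr* (0.75), *Eng* (0.64) and *Tek* (0.53) led them. Such sums weigh the brightest probe sets most, among them *Lyz2* for macrophages and *Dcn* for fibroblasts (16.58 in scramble, log2 fold change 0.28), so the medians describe the lists better. Every one of these markers was flagged as expressed in both groups, and the part of these cells in the rise of *Mt1* and *Mt2* was not tested.

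Of the other cell type lists limma's test called 0 genes, and an unadjusted p under 0.05 was reached by 2 blood, 1 Schwann cell and 4 fibre markers and by 0 of the smooth muscle and adipocyte lists. Among all probe sets 6.48% reached it as higher and 5.52% as lower. The median was 0.35 for 8 blood markers (summed ratio 1.36; *Hbb-bs* 0.55, *Alas2* 0.54, *Hbb-bt* 0.43) and 0.14 for 8 markers of smooth muscle and pericytes (*Cspg4* 0.27, *Myh11* 0.25, *Cnn1* 0.22). It was -0.31 for 8 adipocyte markers (*Cfd* -0.78, *Retn* -0.75, *Adipoq* -0.69) and -0.16 for 8 Schwann cell markers (*Mbp* -0.42, *Mag* -0.35, *Sox10* -0.30). The fibre markers were led by *Mb*, myoglobin (0.93), *Actn2* (0.64) and *Myh1* (0.59), but *Acta1* and *Myh4* stood at 19.93 with an SD of 0.00 in both groups, the highest value in the table, and several others lay close to it, *Mb* in MYTHO-KD (19.75) among them. Differences at this ceiling could not be measured, so no median is read from the list.

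**Figure D4:**
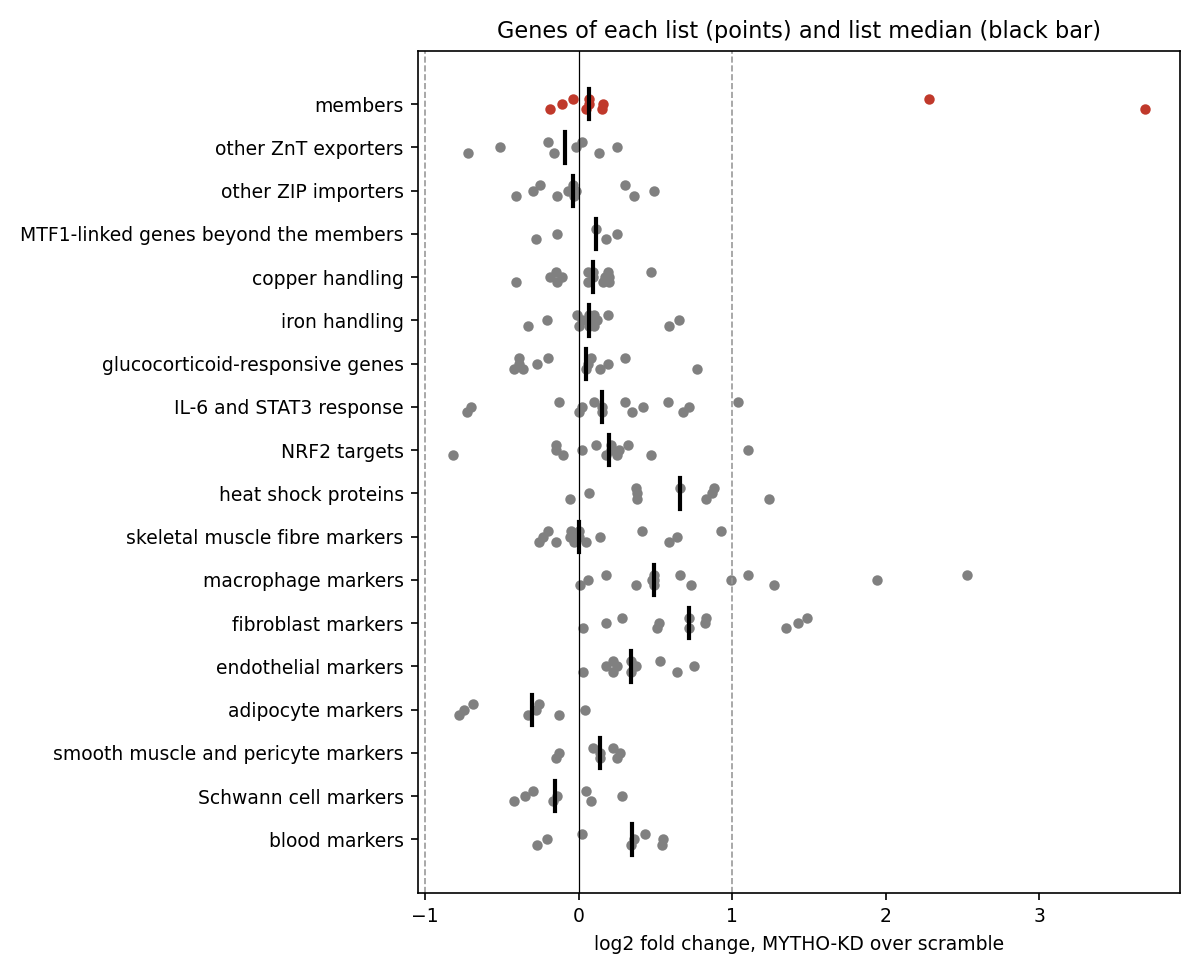
Log2 fold change of MYTHO-KD over scramble for the genes of each list (points) with the list median (black bar) and dashed lines at a 2-fold change. The members in red hold 2 genes beyond the dashed line at 1, and the macrophage and fibroblast lists, with medians of 0.49 and 0.72, lie wholly above 0.

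The probe sets most like the metallothioneins were sought in the plane of the 2 group averages. With only 2 groups this likeness rests on 2 numbers per gene, and it says nothing of shared control. Signals of different probe sets also depend on how well each probe binds, so nearness in this plane is not nearness in RNA abundance. Nearest to *Mt1* were *Mustn1* (distance 0.671 log2 units), *Ankrd2* (0.705), which codes for an ankyrin repeat protein of stretched muscle, and *Padi2* (0.722), with log2 fold changes of 1.38, 2.10 and 1.51. Nearest to *Mt2* were *Mybph* (0.397), a myosin-binding protein, a probe set shared by *Mup* genes (0.485) and *Mup1* (0.520), with log2 fold changes of 3.13, 3.06 and 3.08. The SDs in MYTHO-KD were 0.78 for *Mybph* but 2.61 for the shared *Mup* probe set and 2.85 for *Mup1*, against 1.80 for *Mt2*. *Mup* genes are near-identical copies and their probe sets may share signal. All 6 were called higher, as follows from their place near 2 genes that were.

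**Figure D5:**
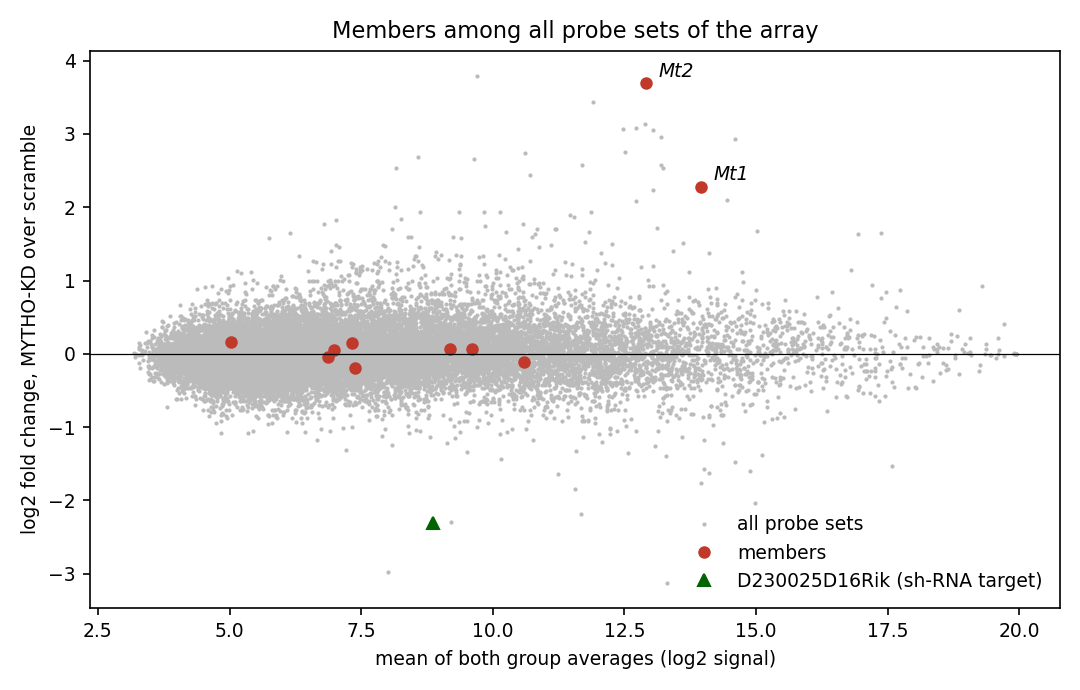
Log2 fold change of MYTHO-KD over scramble against the mean of both group averages (log2 signal) for all 22206 probe sets (grey), with the 10 members in red and the hairpin's target *D230025D16Rik* as a green triangle. *Mt2* and *Mt1* stand at 3.69 and 2.28 in the upper part of the cloud, and the other 8 members lie within 0.19 of 0.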

How the data were processed

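Total RNA of GAS muscle was hybridized to 8 Clariom S Mouse arrays, 4 per group. The study's methods give SST-RMA in the Transcriptome Analysis Console at its default settings, while the submitters' processing notes name Affymetrix Expression Console and RMA. The authors deposited 1 table (mm10 annotation, decimal comma) with, per group, the average log2 signal, its SD and a flag for expression; 6 of its 28 columns were used. The columns of the authors' own comparison (fold change, p-value, false discovery rate) were not used, and 0 columns hold single arrays.

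The difference of the averages was tested with limma 3.58.1 in R 4.3.3: the variances of both groups were pooled (6 degrees of freedom) and moderated over all 22206 probe sets by squeezeVar (prior SD 0.284 on 5.85 degrees of freedom), p-values were two-sided, and Benjamini-Hochberg adjustment ran over all probe sets. Intervals are 95% intervals of this test. The kind of average is not stated; if it is not a plain mean, p-values may be too low. The 4 arrays per group limit the precision. Labels do not say which leg pairs with which, and p-values measure the spread between these muscles. By the study's methods the groups are opposite legs, yet the test treated all arrays as independent. P-values and intervals rest on that assumption, which the design does not give. Members and lists were chosen with earlier results of these data known. Named genes are the members, the target, the 3 largest differences of each list and neighbourhood, any gene called, and the 3 probe sets nearest to *Mt1* and to *Mt2*; *Nup93*, *Bbs2*, *Acta1*, *Ckm*, *Myh4*, *Csrp1*, *Selenow*, *Stat3*, *Pim1*, *Dcn*, *Sco1*, *Klf15*, *Ddah1* and *Igf2* were named outside this rule, with their values seen. Alternatives were other variance models, filters, centring on a lowess curve (span 0.3), gene means and other thresholds. Promoter sequences are those of RefSeq.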

Additional observations from a re-analysis of the deposited data

How the results depend on the processing

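*Mt1* and *Mt2* were called higher under all 7 alternatives of variance model, filter, centring and probe set, with log2 fold changes of 2.27 to 2.28 and 3.68 to 3.69. Only the centring could move these fold changes. The other alternatives start from the same 2 averages, and each member has 1 probe set, so the constancy is no added support. Their unadjusted p stayed under 0.05, and their adjusted p ran from 0.0647 to 0.494 and from 0.0592 to 0.473 (limma and the other variance models), above 0.05 in each. With an adjusted p under 0.05 as the threshold, with or without the 2-fold limit, 0 members were called higher in place of 2. The adjusted p was 0.0742 for *Mt1* and 0.067 for *Mt2* in the main test (limma). The adjusted p fell below 0.05 in 61 probe sets of the whole table, against 2 without moderation, 2 with unequal variances and 189 with a trended robust prior. The other 8 members were not called in any of the 55 values obtained. They kept their direction, which only the centring could have changed. The filter on dim probe sets (mean under 5.715) leaves out *Mt3*. At 1.5-fold, 1 of the other ZnT and ZIP genes (*Slc30a9*) was called lower in place of 0. Of the genes of the other lists, 10 were called higher and 0 lower (9 and 0 without *Timp1*, under either filter). At 1.5-fold these counts were 27 and 3, and with an adjusted p, with or without the 2-fold limit, 4 were higher. Over all probe sets 0.860% were called higher and 0.257% lower at 2-fold, and 0.275% had an adjusted p under 0.05 (limma). The share of all probe sets at 1.5-fold was not computed, so the counts at 1.5-fold have no background beside them. Windows of 250 and 1000 kb around the cluster also held 0 called neighbours. No paired analysis was possible because the table used holds group averages; for the same reason no array was left out in turn. Rounding of averages and SDs to 2 decimals, and the low signal of *Mt3*, limit small differences.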
